A study of Mus musculus with 135 samples.

Results

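The haematopoietic stem cells (HSCs) of an old mouse were separated by a single transcript, that of H2-Aa, which encodes the alpha chain of the major histocompatibility complex (MHC) class II molecule I-A. The old cells that passed the limits of the study were divided at log2(CPM + 1) of H2-Aa, where CPM is the count per 1000000 reads counted on genes in that cell. Above 2 a cell was taken as with H2-Aa (38 cells), and at or below 2 as without (24 cells), so that 62 of the 74 old cells and of 135 cells in the whole series were compared, and 12 old cells were left out. The measured level of H2-Aa therefore chose the members, and its values are given below as a description only.

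The study sequenced RNA from single HSCs of 1 young mouse, aged 2 to 3 months, and 1 old mouse, aged 20 to 25 months, to ask how ageing changes the stem cell transcriptome. Both carried the Vwf-eGFP reporter transgene on a C57BL/6 background with no treatment named in the labels, and viable bone marrow cells were sorted as LSK (lineage negative, Sca-1 positive, Kit positive) CD150+CD48-. Single cells were captured on C1 microfluidic chips, complementary DNA of the whole transcript was amplified, and single 51 bp reads were sequenced. Because all 62 cells came from 1 mouse and the sides were formed by a measured value, the comparison had no replicate and no test was made.

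MHC class II molecules are heterodimers of an alpha and a beta chain that carry peptides from the endosomal compartment to the cell surface for recognition by CD4+ T cells. The invariant chain, encoded by Cd74, holds the peptide groove during transport, and H2-DM exchanges the remaining fragment for peptide, a step that H2-DO restrains. Transcription of these genes is controlled by the coactivator CIITA, which has no DNA-binding domain and is recruited to the promoter by RFX, CREB and NF-Y factors. In most non-professional cells CIITA is induced by interferon-gamma, and expression of class II molecules is best known from B cells, dendritic cells and macrophages.

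The promoters of the class II genes are shown because their shared element is the textbook basis for joint control of the genes that the comparison turns on. Of 11 genes (the class II list and Ciita), 8 were searched in windows of the RefSeq promoter table (GRCm38.p6). A window runs from 250 bases before to 50 bases after the transcript start and includes the first bases of exon 1. Of these 8 genes, 4 are printed in the direction of transcription. H2-Aa lies on the minus strand of chromosome 17 (chr17:34287774-34288073), and H2-Eb1 (chr17:34305617-34305916), H2-DMb1 (chr17:34152941-34153240) and H2-DMa (chr17:34122582-34122881, the first of its windows) lie on the plus strand. Capitals mark TGATTGG, the Y box bound by NF-Y, in H2-Aa also TGACGTCA, the palindromic CREB site, and in H2-Eb1 also the shorter GATTGG, read as CCAATC on the other strand, which is not a full Y box match.
H2-Aa: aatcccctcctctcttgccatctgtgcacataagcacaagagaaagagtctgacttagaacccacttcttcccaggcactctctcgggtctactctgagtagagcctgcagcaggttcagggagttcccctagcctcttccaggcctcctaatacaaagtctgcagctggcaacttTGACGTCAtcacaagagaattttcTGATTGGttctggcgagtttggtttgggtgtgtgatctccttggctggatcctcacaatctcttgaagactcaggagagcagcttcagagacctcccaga
H2-Eb1: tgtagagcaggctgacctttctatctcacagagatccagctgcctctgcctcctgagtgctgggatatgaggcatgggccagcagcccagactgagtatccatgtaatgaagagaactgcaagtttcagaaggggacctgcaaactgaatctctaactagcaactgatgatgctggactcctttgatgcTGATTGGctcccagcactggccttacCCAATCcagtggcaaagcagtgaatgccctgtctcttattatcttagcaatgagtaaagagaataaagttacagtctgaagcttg
H2-DMb1: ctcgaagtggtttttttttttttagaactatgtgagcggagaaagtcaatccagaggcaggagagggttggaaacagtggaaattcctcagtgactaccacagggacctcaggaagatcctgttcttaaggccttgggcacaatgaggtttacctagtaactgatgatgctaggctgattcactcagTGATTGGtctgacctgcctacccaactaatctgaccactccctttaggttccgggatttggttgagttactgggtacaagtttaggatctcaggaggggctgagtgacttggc
H2-DMa: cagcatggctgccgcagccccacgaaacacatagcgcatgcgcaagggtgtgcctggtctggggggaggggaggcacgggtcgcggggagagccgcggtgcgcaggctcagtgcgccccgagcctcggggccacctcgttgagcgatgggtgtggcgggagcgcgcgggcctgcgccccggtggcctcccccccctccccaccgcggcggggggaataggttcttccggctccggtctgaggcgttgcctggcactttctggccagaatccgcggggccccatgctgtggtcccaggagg

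TGATTGG, searched on both strands (CCAATCA on the other), was found in 7.82% of all 32851 promoter windows of this length, and was chosen after these windows had been read. It lay 50 bases before the start in H2-Aa, 61 in H2-Eb1, 63 in H2-DMb1, 92 in H2-DMb2, 45 in H2-Oa, 59 in H2-Ob and 102 in H2-Eb2. Neither window of H2-DMa held it, and of the 8 genes H2-DMa was the one without it in the windows searched. Both windows lie inside the gene, which is annotated from 34119693 to 34139101. Any other transcript start of H2-DMa was not searched, nor was any window of H2-Ab1, Cd74 or Ciita. GATTGG, which every TGATTGG holds, was found in 16.1% of windows and TGACGTCA in 1.79%. A match describes these letters in these windows, and binding of a factor was not measured.

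Reads counted on genes ranged from 276316 to 3703939 per cell with H2-Aa (median 1855130) and from 612613 to 4086659 without (median 2369163.5), and 10 and 1 cells had fewer than 1000000. A median of 4066 genes was expressed (log2(CPM + 1) above 2) per cell with H2-Aa and 3806.5 without, and after each cell was thinned to 250000 reads the medians were 4335 and 4061.5. Because the limit is a CPM value, fewer reads pass it in a cell read less deeply. Cell H1, with H2-Aa, had 289282 reads and the most expressed genes, 6267. The reads carry no molecular identifiers, so that the 95% exact intervals of shares and of read sums used here cover counting error only. Xist was expressed in 5 cells with and 3 without H2-Aa, although 58 of the 62 cells expressed a Y-linked gene. Cells with H2-Aa were found under every letter, A to H, of the position in the cell names, with 7 of 8 cells under A and between 3 and 6 under each of the others.

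**Figure D1:**
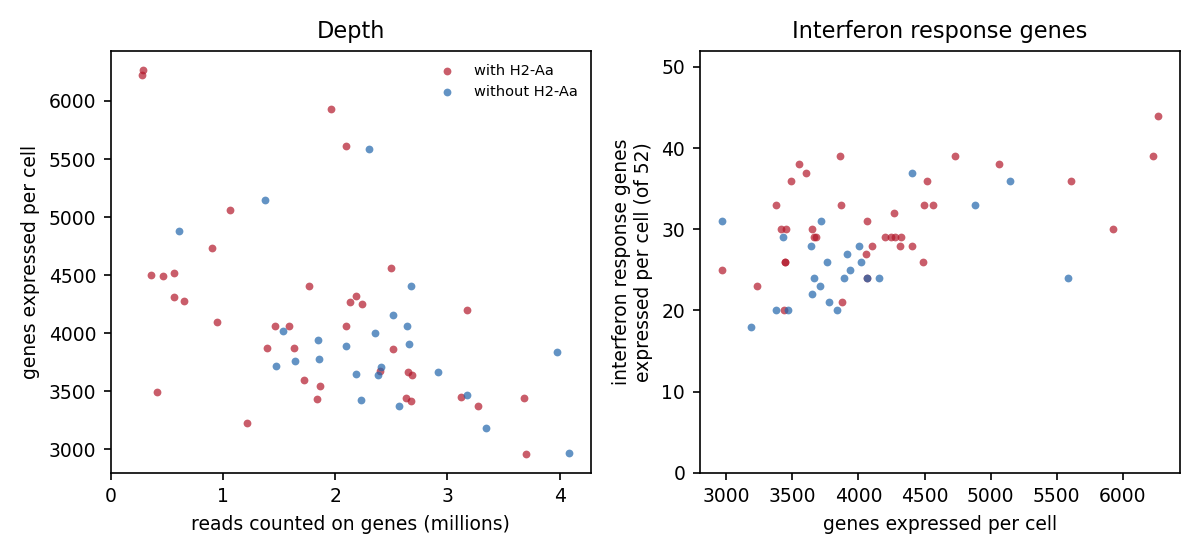
Left, reads counted on genes (in units of 1000000) against the number of genes expressed, 1 point per old cell. Right, the number of 52 interferon response genes expressed in the same cell. Cells with H2-Aa (red, 38) had a median of 1855130 reads and 30 interferon genes, and cells without (blue, 24) had 2369163.5 reads and 24.5 interferon genes, with overlapping ranges on every axis.

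H2-Aa itself ranged from 2.09 to 12.08 with a median of 8.44 on the log2(CPM + 1) scale in the cells with it, and from 0 to 1.70 with a median of 0.57 in the cells without. The 3 cells just below the limit held 1.25, 1.28 and 1.70 (3, 3 and 6 reads), and the 3 just above held 2.09, 2.25 and 2.31 (6, 6 and 7 reads). Most cells stood far from the limit, 32 of the 38 lying above 4. Cells without H2-Aa were not free of its reads, since 18 of 24 held at least 1, 36 reads in all against 40402 in the cells with it. In the young mouse, 2 of 44 cells at or below the same limit held a read.

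Across the 9069 genes that 10% or more of the 62 cells expressed, H2-Aa left out, the mean level was higher by at least 1 on the log2 scale in cells with H2-Aa for 797 genes (8.79%) and lower by at least 1 for 509 genes (5.61%). A difference here is the mean log2(CPM + 1) with H2-Aa minus that without, and its median over the 9069 genes was 0.08. This median moved to -0.01 with TMMwsp factors and to -0.02 with poscounts factors, where the counts became 627 higher and 613 lower, and 588 higher and 606 lower. These shares are the background for the gene lists that follow.

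Of the 10 listed class II genes, H2-Aa was left out and 7 others passed the filter. Of these, 5 were higher by at least 1 and none of the 7 was lower by that amount, with a median difference of 1.35. H2-Ab1, the beta chain partner of H2-Aa in I-A, ranged from 0 to 10.61 with a median of 7.20 in cells with H2-Aa, and from 0 to 10.86 with a median of 1.15 in cells without. The ranges overlapped fully, and the cells divided by how often the gene was expressed, in 33 of 38 with H2-Aa (86.8%, interval 71.9 to 95.6) and in 6 of 24 without (25%, interval 9.77 to 46.7). The mean levels were 6.23 and 2.54, a difference of 3.69.

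Cd74, encoding the invariant chain, was similarly divided, from 0 to 9.68 (median 6.27) with H2-Aa and from 0 to 8.90 (median 0) without. It was expressed in 31 and 6 cells, 81.6% against 25%, and its mean levels of 5.47 and 1.76 differed by 3.71. H2-Eb1, the beta chain of I-E, ranged from 0 to 9.21 (median 3.17) and from 0 to 8.15 (median 0), and was expressed in 23 and 4 cells, with a difference of 2.35. C57BL/6 mice lack a functional I-E alpha chain, so that this transcript has no surface partner in the strain.

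The accessory genes differed among themselves. H2-DMb1, a beta chain of the peptide editor H2-DM, was expressed in 20 and 7 cells and differed by 1.35, and its near-identical neighbour H2-DMb2 was expressed in 16 and 6 cells and differed by 1.11, although reads shared by these paralogues could not be told apart. H2-DMa, the alpha chain of the same heterodimer, ranged from 0 to 10.89 (median 5.75) with H2-Aa and from 0 to 9.73 (median 6.54) without. It was expressed in 24 of 38 and 14 of 24 cells, and its mean levels of 4.85 and 4.86 differed by -0.01. H2-Oa, the alpha chain of H2-DO, was expressed in 10 and 4 cells with a difference of 0.27, H2-Ob in 1 and 0 cells, and H2-Eb2 in 0 and 1.

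**Figure D2:**
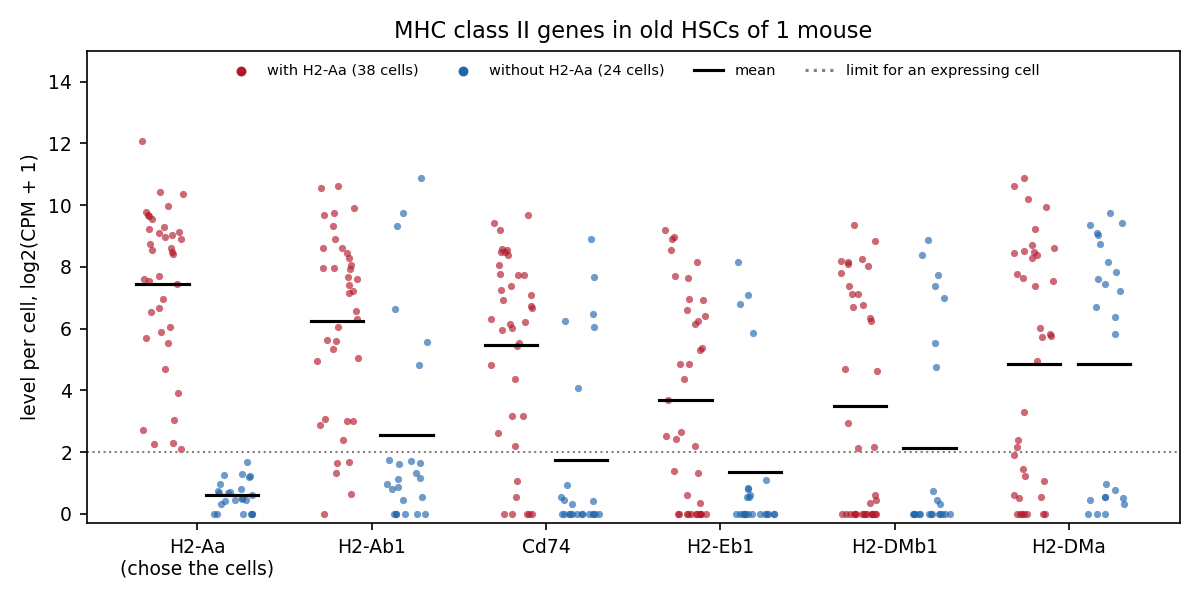
Level of 6 class II genes in each old HSC, log2(CPM + 1), in cells with H2-Aa (red, 38) and without (blue, 24). Bars are means and the dotted line is the limit of 2 for an expressing cell. H2-Aa chose the cells. H2-Ab1, Cd74, H2-Eb1 and H2-DMb1 were expressed in 33, 31, 23 and 20 cells with H2-Aa and in 6, 6, 4 and 7 without, whereas the means of H2-DMa were 4.85 and 4.86.

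Class II transcripts came together in part within single cells. Of the 62 cells, 27 expressed H2-Aa, H2-Ab1 and Cd74, and 14 expressed none of them. Among the 38 cells with H2-Aa, 6 had H2-Ab1 without Cd74, 4 had Cd74 without H2-Ab1, and 1 had neither. Among the 24 cells without H2-Aa, 10 expressed H2-Ab1 or Cd74, 2 of them both. Of H2-Ab1, H2-Eb1, Cd74 and H2-DMb1, 24 of the 38 cells with H2-Aa expressed at least 3, 14 of them all 4, while 3 of the 24 without expressed 3 and 0 expressed all 4.

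Ranked by Pearson r with H2-Aa over the 62 cells, Cd74 (0.57) and H2-Ab1 (0.44) stood at ranks 1 and 2 of the 5817 genes that 25% or more of the cells expressed. Snx2 (0.41), St3gal1 (0.40), Hnrnpdl (0.38), Parp10 (0.38), Denr (0.37), Pglyrp2 (0.37), Hspbp1 (0.36) and Gm4759 (0.36) came next, and Ncstn (-0.47), B4galt4 (-0.44), Plaa (-0.43), Mgat2 (-0.41) and Rcn2 (-0.41) were at the lower end. These values describe cells of 1 mouse that were captured together, and H2-Aa is also what divided the cells. Within the 38 cells with H2-Aa, r was 0.02 for H2-Ab1, 0.33 for Cd74 and 0.44 for H2-DMa.

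The size of the class II differences depended on the limit and on the scale. With 1 read of H2-Aa as the limit, which left 6 cells without it, H2-Ab1 differed by 0.93 and Cd74 by 4.46, and the log2 ratio of mean CPM gave 0.91 and 2.02. Among cells with more expressed genes than the median of the 62, H2-Ab1 differed by 2.24, Cd74 by 2.74 and H2-Eb1 by 1.46, and among the other cells by 4.69, 4.87 and 3.01. Of the 7 class II genes 3 were then higher and 1 lower by at least 1 in the former cells. Of all genes there, 16.3% were higher and 13.2% lower. In the latter cells 6 were higher and 0 lower, where 12.4% of all genes were higher and 14.05% lower.

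Genes for the control of class II transcription showed no common direction. Of 12 regulators that passed the filter, 2 (16.7%, against 8.79% of all genes) were higher by at least 1. Lower by that amount were 2 (16.7%, against 5.61%), with a median of 0.13. Ep300, a histone acetyltransferase coactivator, was higher by 1.47 and Creb1 by 1.16, whereas Nfyb, a subunit of NF-Y, was lower at 1.44 against 3.03, and Rfx5, the large subunit of RFX, was lower at 0.83 against 2.21. Ciita was expressed in 2 cells with H2-Aa and 1 without, too few for a comparison. Of the processing genes 4 passed and none of them was past the limit (median 0.51), the endosomal protease genes Ctsb and Ctsl at 0.92 and 0.36 among them.

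Interferon response genes were more often higher in cells with H2-Aa. Of 58 listed genes 52 passed the filter, and 17 of them (32.7%, against 8.79% of all genes) were higher by at least 1 and none of the 52 lower by that amount (1 without cell F3, which is without H2-Aa), with a median difference of 0.47. Per cell, a median of 30 of the 52 genes was expressed with H2-Aa (range 20 to 44) and 24.5 without (range 18 to 37), and 30.5 and 27 after thinning to 250000 reads. The highest number, 44, was in cell H1, which had 289282 reads.

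Among receptors and signal transducers, Ifngr1, the ligand-binding chain of the interferon-gamma receptor, ranged from 0.50 to 10.91 (median 4.86) with H2-Aa and from 0 to 10.45 (median 3.40) without. It was expressed in 36 of 38 cells (94.7%, interval 82.3 to 99.4) and in 13 of 24 (54.2%, interval 32.8 to 74.4), and its mean level was higher by 1.84. Stat2 was higher by 1.54 and Ifnar2, a chain of the type I interferon receptor, by 1.20. The other receptor chains and kinases listed, and Irf1, were not past the limit, with 0.11 for Ifngr2, 0.26 for Ifnar1, -0.45 for Jak1, -0.10 for Jak2 and 0.33 for Irf1.

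Of the 17 genes, 9 encode interferon-inducible GTPases that act against intracellular microbes. Other such genes that passed the filter were not past the limit. These were Irgm1 (0.74), Gbp9 (0.54), Igtp (0.43), Gbp3 (0.37) and Irgm2 (-0.40). Iigp1, an immunity-related GTPase, ranged from 0 to 12.40 (median 6.88) with H2-Aa and from 0 to 10.54 (median 2.01) without. It was expressed in 32 of 38 and 12 of 24 cells, and was higher by 2.26. Gbp6 was higher by 1.58, Gbp4 and Gbp7 by 1.45, Gbp8 by 1.41 and Gbp2 by 1.31, and Tgtp2, Tgtp1 and Ifi47 by 1.16, 1.14 and 1.02, although the Tgtp genes are near-identical and reads between members of the Gbp cluster may be shared. Further members past the limit were Ifi44 (1.47), Samhd1 (1.39), Sp100 (1.37) and Usp18 (1.13), where Iigp1 and Ifngr1 were named by rule for the size of their difference and the others after their values had been seen. Canonical antiviral genes lay on both sides of 0, with Oas3 at 0.77, Irf7 at 0.45, Isg15 at 0.24, Rsad2 at -0.63, Oasl2 at -0.65 and Ifit2 at -0.73.

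The interferon counts moved with the cells used and the limit. Of the 52 genes, 12 were higher and 6 lower among cells with more expressed genes than the median. There 16.3% of all genes were higher and 13.2% lower. Among the other cells 22 were higher and 2 lower, where 12.4% of all genes were higher and 14.05% lower. With an H2-Aa limit of 4 the count was 10 higher (19.2%, against 6.95% of all genes). With the 1-read limit it was 10 higher and 11 lower, where 16.6% of all genes were higher and 17.97% lower. The log2 ratio of mean CPM gave 17 higher and 6 lower, where 20.3% of all genes were higher and 16.3% lower.

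Genes of MHC class I and peptide loading, which also respond to interferon, stood near the background. Of 22 that passed, 2 (9.09%) were higher by at least 1 and none of the 22 lower, with a median of 0.34. Psmb10, a subunit of the immunoproteasome, was higher by 1.43 (31 and 14 cells) and Psme2, a subunit of the proteasome activator, by 1.02. B2m, the light chain of class I, was expressed in all 62 cells with means of 11.88 and 11.96, and H2-K1 and H2-D1 differed by 0.11 and 0.45.

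**Figure D3:**
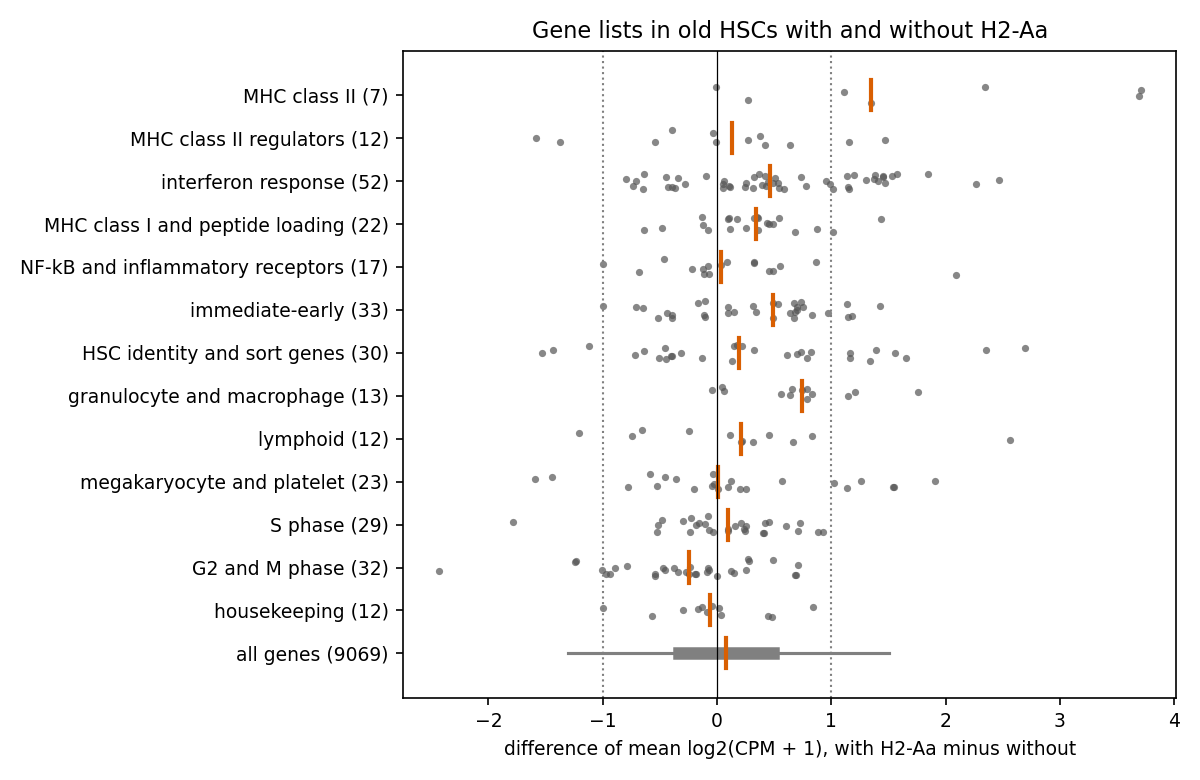
Difference of mean log2(CPM + 1), cells with H2-Aa minus cells without, 1 point per gene that passed the filter (number in parentheses), with H2-Aa left out. Orange bars are medians, dotted lines the limit of 1 in each direction. For all 9069 genes the thick and thin grey bars hold the central 50% and 95%. The class II genes had a median of 1.35, the interferon genes of 0.47 and all genes of 0.08.

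Genes that mark HSCs differed in both directions, 18 lying above 0 and 12 below. Of 30 listed genes that passed, 8 (26.7%, against 8.79% of all genes) were higher by at least 1. Lower by that amount were 3 (10%, against 5.61%), with a median of 0.19. Hlf, a transcription factor of long-term HSCs, ranged from 1.80 to 11.19 (median 9.25) with H2-Aa and from 0 to 10.65 (median 7.64) without. It was expressed in 37 of 38 and 18 of 24 cells, and its mean levels of 8.70 and 6.01 differed by 2.70. Procr, encoding the protein C receptor EPCR, ranged from 0 to 10.05 (median 2.38) and from 0 to 5.48 (median 0), and was expressed in 20 of 38 cells (52.6%, interval 35.8 to 69.02) and 4 of 24 (16.7%, interval 4.74 to 37.4).

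Ly6a, which encodes the sorted antigen Sca-1 and is itself inducible by interferon, was expressed in 30 and 13 cells and was higher by 1.65. Hoxa9 (1.56), Bmi1 (1.39), Fli1 (1.34), Mllt3 (1.16) and Prdm16 (1.16) were also higher. The 3 genes that were lower were Cd34 (-1.53), carried by more mature progenitors, and the transcription factor genes Tal1 (-1.43) and Runx1 (-1.12). Kit, sorted on as a surface protein, was expressed in 37 of 38 and 24 of 24 cells, with a difference of -0.64. Slamf1, encoding CD150, was expressed in 8 and 7, with a difference of -0.39. Hlf and Ly6a depended on how many genes a cell expressed, with 0.91 and 0.41 in cells above the median number of genes and 4.17 and 2.84 in the others, while Procr gave 2.70 and 2.09. With the 1-read limit 6 of the 30 genes were higher and 8 lower, with a median of -0.10. In that setting 16.6% of all genes were higher and 17.97% lower. The ratio of mean CPM gave 6 higher (20%, against 20.3% of all genes) and 5 lower, where 16.3% of all genes were lower. Hlf, Procr and Ly6a were named by rule for the size of their difference, Kit and Slamf1 as markers, and the other members after their values had been seen.

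Megakaryocyte and platelet genes, which set apart a subset of HSCs in the study, differed in both directions. Of 23 that passed, 6 (26.1%, against 8.79% of all genes) were higher by at least 1. Lower by that amount were 2 (8.70%, against 5.61%), with a median of 0.01. Itga6, an integrin alpha chain, was expressed in 33 and 15 cells and was higher by 1.90, Clu by 1.55 and Gp9, part of the von Willebrand factor receptor, by 1.54. Vwf itself was expressed in 24 of 38 cells (63.2%, interval 45.99 to 78.2) and 13 of 24 (54.2%, interval 32.8 to 74.4), intervals that overlap, with a difference of 1.02. Plek and the tetraspanin gene Cd9 were lower, with 4.39 against 5.99 and 5.35 against 6.79, and Pf4 (0.13) and Itga2b (-0.36) differed by less than 1. The direction of the list turned with the number of genes a cell expressed. Among cells above the median number 11 were higher and 1 lower (median 0.76), where 16.3% of all genes were higher and 13.2% lower. Among the others 5 were higher and 12 lower (median -1.10), where 12.4% of all genes were higher and 14.05% lower.

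Among genes that the study itself chose as higher in old HSCs, 59 passed, with a median of 0.73. Higher by at least 1 in cells with H2-Aa were 23 (38.98%, against 8.79% of all genes). Lower by that amount were 3 (5.08%, against 5.61%), near the share of all genes. The list was chosen on these cells and contains H2-Ab1, Cd74, H2-Eb1 and Iigp1, so it is not independent evidence of direction. For ratios of mean CPM 10 of the 59 were higher (16.9%, against 20.3% of all genes) and 4 lower. Other members higher with H2-Aa were Gda, encoding guanine deaminase (expressed in 31 and 13 cells, difference 2.74), Exoc6b (2.40), Ube2h (2.23) and Casp12 (2.16). Enpp5 was lower, at 3.01 against 5.21. Gda was named by rule for the size of its difference and the others after their values had been seen.

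**Figure D4:**
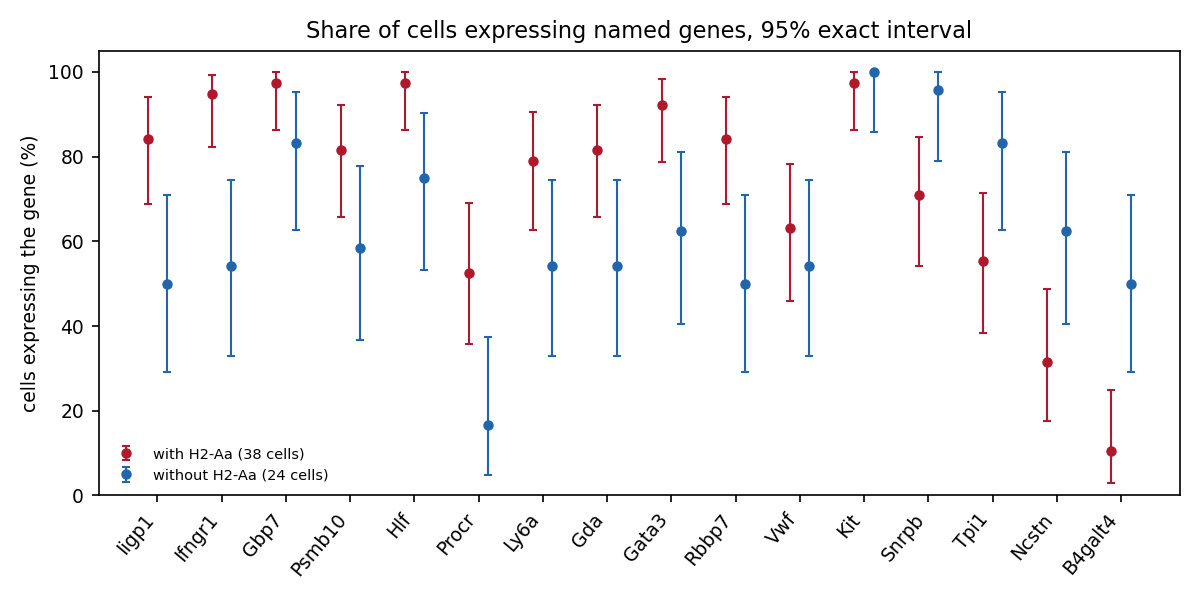
Share of cells (%) expressing each gene, log2(CPM + 1) above 2, in the 38 old HSCs with H2-Aa (red) and the 24 without (blue), with 95% exact intervals for counting error. Ifngr1 was expressed in 94.7% and 54.2% of cells and Procr in 52.6% and 16.7%, whereas B4galt4 was expressed in 10.5% and 50%.

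The genes with the largest differences were of mixed function. Rbbp7, a histone-binding subunit of chromatin complexes including PRC2, was the highest, at 0 to 11.10 (median 8.18) with H2-Aa and 0 to 9.25 (median 1.94) without, expressed in 32 and 12 cells, with a difference of 3.90. It was followed by Cd74, H2-Ab1, Tgoln1 (3.00, a protein of the trans-Golgi network), Mtf2 (2.80, an accessory subunit of PRC2), Hnrnpdl (2.76, an RNA-binding protein), Gda (2.74), Snx2 (2.72, a sorting nexin), Phf20 (2.72, a chromatin reader), Hlf (2.70), Gata3 (2.56, a zinc finger transcription factor) and 2610507B11Rik (2.56).

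In the other direction B4galt4, a galactosyltransferase gene, was expressed in 4 of 38 cells with H2-Aa and 12 of 24 without, and its mean level was 0.71 against 3.88. With the 1-read limit for H2-Aa its difference turned to 0.85. Next were Ncstn (-2.87, the gamma-secretase subunit nicastrin), Tpi1 (-2.70, the glycolytic enzyme triosephosphate isomerase), Plaa (-2.67), Limd1 (-2.60), S100a1 (-2.60, a calcium-binding protein), Txnl1 (-2.48), Hn1 (-2.44), Hnrnph2 (-2.36), Mgat2 (-2.35, an enzyme of N-glycan synthesis), Snrpb (-2.34, a core spliceosomal protein) and Rcn2 (-2.33). These were the extremes of 5817 genes and were named for that.

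Defining markers of the cells that usually express class II were examined on both sides. Cd48, the antigen used for negative selection, had 0 reads in all 62 cells, as had Zbtb46 of dendritic cells, the macrophage complement genes C1qa and C1qc, and the erythroid genes Klf1 and Hba-a1. C1qb was expressed in 0 and 1 cells, Itgam in 0 and 1, Cd68 in 5 and 0, Siglech in 2 and 3, Clec9a in 8 and 3, Cd3d in 12 and 4, Flt3 in 2 and 0, and the B-cell receptor gene Cd79b in 10 of 38 and 6 of 24, with mean levels of 1.96 and 1.99. Xcr1 was expressed in all 62 cells, with mean levels of 4.94 and 4.73.

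Summed over the B-cell markers, 1 of 9 without a read, cells with H2-Aa held 28.8 to 978 CPM (median 345) and cells without held 12.97 to 1573 CPM (median 366). For dendritic cell markers, 1 of 13 without a read, the medians were 452 and 457 CPM (ranges 26.9 to 2030 and 54.4 to 2106). For macrophage and monocyte markers, 3 of 13 without a read, they were 268 and 117 CPM (ranges 2.24 to 1853 and 2.70 to 1632), and Lyz2 was the 1 member past the limit, expressed in 31 and 12 cells. For T and NK cell markers, 4 of 11 without a read, they were 17.9 and 11.9 CPM (ranges 1.87 to 1361 and 3.29 to 993). Cd79a, Ms4a1, Pax5, Itgax, Csf1r and Cd3e were not analysed here. Their part in the class II and interferon differences was not tested.

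Cells outside the comparison were divided at the same limit. In the young mouse 8 of 52 cells (15.4%, interval 6.88 to 28.1) were above it, against 38 of 62 (61.3%, interval 48.1 to 73.4) in the old. H2-Ab1 was expressed in 62.9% of old and 11.5% of young cells, Cd74 in 59.7% and 11.5%, H2-Eb1 in 43.5% and 3.85%, and H2-DMa in 61.3% and 48.1%. With 1 mouse per age, age cannot be told apart from mouse and capture run.

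Among the 52 young cells, with 8 against 44, 12.7% of the 9069 genes were higher and 15% lower by at least 1. Of the 7 class II genes 4 were higher and 0 lower by at least 1. H2-Ab1 was expressed in 3 of 8 and 3 of 44 cells and was higher by 2.75, Cd74 in 2 and 4 cells by 1.64, and H2-Eb1 in 2 and 0 cells by 1.14. H2-DMa, even in the old cells, was higher by 1.21 (6 and 19 cells). H2-DMb1 and H2-DMb2, higher in the old cells, were at -0.80 and -0.50. Iigp1 was expressed in 6 of 8 and 9 of 44 cells and was higher by 4.05, Ly6a by 2.34 and Procr by 1.62. Of the 52 interferon genes, however, 8 were higher and 9 lower, with a median of -0.03, and of the 12 genes with the largest positive differences in old cells 3 were higher and 3 lower, Rbbp7 at -1.18 and Hlf at 0.29.

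Among the 12 old cells left out, 9 were with and 3 without H2-Aa, and with so few cells 26.5% of genes were higher and 22.5% lower. H2-Ab1 differed by 3.71 (5 of 9 and 1 of 3 cells), Cd74 by 3.92 (5 and 0), Iigp1 by 3.23 (7 and 1) and Hlf by 6.41 (9 and 1). H2-DMa, which differed by -0.01 in the 62 cells, differed by 3.77 in these (4 and 0 cells). Of the 7 class II genes 6 were higher and 0 lower by at least 1. Of the 12 genes with the largest positive differences in the 62 cells 9 were higher and 2 lower, Mtf2 at -4.41 and Tgoln1 at -1.43. The 12 with the largest negative differences were mostly opposite to their values in the 62 cells, 7 being higher and 3 lower with a median of 1.14, among them Snrpb at 4.27, B4galt4 at 2.35 and Ncstn at 2.12. Of the 52 interferon genes 23 were higher and 11 lower. With all 74 old cells, divided into 47 and 27, H2-Ab1 differed by 3.59 and Cd74 by 3.61.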

How the data were processed

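Per the labels and the methods of the study, the authors mapped single reads to mm10 with TopHat2 2.0.10 and counted them on RefSeq genes. The deposited counts per gene and cell (15181 genes, 21 entries joining several genes) carry no normalization, no molecular identifiers and no length correction, so levels were compared within genes only. Counting is not stated to use strand. CPM was computed on each cell's total, with a pseudocount of 1, and levels are means of log2(CPM + 1). Doublets were not called, since captured cells had been imaged. Genes that 10% or more of the 62 cells expressed were kept, and named genes were the class II genes and Ciita, the 12 largest differences each way among genes that 25% or more expressed, at most 3 members per list, marker genes and the 10 genes most like H2-Aa.

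The members, lists and limits were chosen with earlier results of these data known. Both sides are cells of 1 mouse, so no test was made, and intervals are exact Clopper-Pearson or Poisson. Python 3.11.15, pandas 2.3.3, scipy 1.17.1, edgeR 4.0.16 (TMMwsp factors) and DESeq2 1.42.0 (poscounts factors) were used. The script was tested on simulated data. Positions and promoters are those of RefSeq, GRCm38.p6, in which 14287 symbols matched. Some listed genes are not reported here by name.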

Additional observations from a re-analysis of the deposited data

How the results depend on the processing

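Against 797 genes higher and 509 lower, the counts were 1501 and 1630 with 1 read of H2-Aa as the limit (56 against 6 cells), 1554 and 955 with a pseudocount of 0.1 CPM, 1840 and 1475 for ratios of mean CPM, and 1479 and 1199 in cells with more expressed genes than the median. In the other cells 1274 were lower. Cells with all 3 of H2-Aa, H2-Ab1 and Cd74 (27) against cells with none (14), a comparison chosen after seeing the data, gave 1471 higher. The 17 interferon genes became 10 with 1 read, 10 with a limit of 4, and 27 in that last comparison, where 16.2% of all genes were higher. The 8 HSC genes became 4 with a limit of 4 (13.3%, against 6.95% of all genes). They became 5 in cells with at least 1000000 reads (16.7%, against 9.35%). With 1 read 6 HSC genes were higher and 8 lower, and for ratios of mean CPM 6 were higher (20%, against 20.3%) and 5 lower. B4galt4 turned to 0.85 with 1 read; the cause was not tested. Leaving out each cell in turn gave 742 to 879 genes higher, 470 to 587 lower, 14 to 19 interferon genes higher and 7 to 9 HSC genes higher, and 1 interferon gene in place of 0 was lower without cell F3. No paired analysis was possible because all 62 cells came from 1 mouse and each cell lay on only 1 side of the limit. Ciita, H2-Ob and H2-Eb2 were expressed in at most 3 of 62 cells, too few to compare.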

Other observations

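Other gene lists were described in the same way in the 62 old HSCs, where 8.79% of all genes were higher and 5.61% lower by at least 1. Of 13 granulocyte and macrophage genes that passed, 3 (23.1%) were higher by at least 1 in cells with H2-Aa. None of the 13 was lower by that amount, and the median was 0.74. Anxa1, encoding annexin A1, was higher by 1.76 (26 and 14 cells), Lyz2, encoding lysozyme, by 1.21 and the transcription factor gene Klf4 by 1.14. Of 33 immediate-early genes 4 (12.1%) were higher, near the share of all genes, and none of the 33 lower, with a median of 0.49. Among them were the antiproliferative gene Btg2, higher by 1.43, and Rhob, by 1.18. Of 17 genes of NF-kB and inflammatory receptors, Nfkb1 was higher by 2.09 (20 and 6 cells) and Nfkbia, encoding an inhibitor of NF-kB, was at 5.07 against 6.07, with a median of 0.03. Of 12 lymphoid genes 1 (8.33%) was higher, Gata3 by 2.56, and 1 (8.33%) lower, Tcf3 at -1.20, with a median of 0.21.

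Of 32 genes of the G2 and M phases 4 (12.5%, against 5.61% of all genes) were lower by at least 1. None of the 32 was higher, with a median of -0.24. Hn1 at -2.44, Cenpa at -1.24 and Ctcf at -1.24 were the largest. Of 29 S phase genes 1 was lower, Slbp, which encodes the histone stem-loop binding protein, at -1.79, with a median of 0.10. None of 5 erythroid genes and none of 12 housekeeping genes was past the limit, with medians of -0.09 and -0.06. Among 5 sex-linked genes Ddx3y was higher by 1.38, with a median of 0.16. Medians of marker genes were 0.03 for 6 of B cells, 0.19 for 7 of dendritic cells, 0.16 for 4 of macrophages and monocytes and 0.16 for 4 of T and NK cells, and 1, 1, 1 and 0 of them were higher by at least 1, Cd72, Tcf4 and Lyz2.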
